A study of Homo sapiens with 20 samples.

Results

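The expression levels that T47D cells reached after 6 h of progestin were compared between cells given an siRNA against FOXA1 (si-FOXA1, 2 libraries) and cells given a control siRNA (si-control, 2 libraries). These are 4 of the 20 samples of the series, chosen by their labels for siRNA and time of hormone and by no measured value. T47D is a long-established line from a human breast cancer of luminal type, with receptors for oestrogen and progesterone. According to the labels, cells spent 48 h in medium with 10% charcoal-stripped serum and a night without serum, and then received 10 nM R5020, a synthetic progestin. All groups carry an siRNA, so the comparison is between a targeting and a control siRNA and not with untransfected cells. The same siRNAs at 0 h, and siRNAs against CBX3 (si-CBX3) and BRG1 (si-BRG1) at 6 h, each with 2 libraries, are used only to show where the levels without FOXA1 differ. The comparison is of levels at 6 h and not of the change from 0 h to 6 h.

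FOXA1 is a forkhead transcription factor of the pioneer class: it binds its sites in nucleosomal DNA and makes them accessible to other factors. In the luminal epithelium of the breast it works beside GATA3 and the receptors for oestrogen and progesterone, and it is widely used as a luminal marker. Progestin-bound progesterone receptor acts on many of its genes together with chromatin remodellers of the SWI/SNF family, whose ATPase BRG1 is encoded by SMARCA4.

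RNA was measured as fragment counts per gene, and levels are given as CPM, counts relative to the library total, scaled by TMM, which corrects for differences in composition between libraries. The TMM factors were 1.11 and 1.10 in the si-FOXA1 libraries at 6 h and 0.904 and 0.905 in the si-control libraries. The direction of small differences therefore depends on this scaling. The 4 libraries held 50558030 to 58553148 counted fragments, within the 50017255 to 74374857 of all 16 siRNA libraries. A fragment was counted for 25159 and 25865 genes in the si-FOXA1 libraries and for 23269 and 23035 in the si-control libraries. Per the file headers, the si-FOXA1 and si-CBX3 files were counted in a command with 1 thread and the si-control and si-BRG1 files in a command with 8 threads. Of the markers of other cell types, the pan-leukocyte gene PTPRC, the T cell gene CD3E, the B cell gene MS4A1 and the melanocyte and neural crest genes MLANA and SOX10 had 0 or 1 fragment in each of the 4 libraries. The epithelial genes KRT8, KRT18, KRT19, EPCAM and CDH1 were high in all 4. Unless stated, differences are log2 fold changes of si-FOXA1 against si-control at 6 h with their standard errors (SE) from edgeR's quasi-likelihood test, n = 2 per group, and a gene is called higher or lower where the Benjamini-Hochberg adjusted p is below 0.05.

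FOXA1 itself was lower in both libraries of its siRNA. The gene (ENSG00000129514.4, chromosome 14, 38059189 to 38069245, hg19) was at 45.8 and 44.4 CPM with si-FOXA1 and at 199 and 166 CPM with si-control, a 4.05-fold lower level (-2.02, SE 0.079, adjusted p 2.5e-13). In counts these were 2568 and 2673 fragments against 10561 and 8763, so the transcript stayed measurable after knockdown. The groups did not overlap, and the residual level with siRNA was far above the counting floor. Per kilobase of exon, FOXA1 stood at 11.1 and 10.8 RPKM against 48.5 and 40.4. Before hormone the values were 61.4 and 62.8 CPM with si-FOXA1 against 389 and 408 CPM with si-control. The control level after hormone was thus the lower of both control levels, and the knockdown difference at 6 h was smaller than the -2.68 at 0 h by 0.66 (SE 0.11, adjusted p 0.00017). These are bulk libraries, in which fewer cells with a transcript and less of it per cell cannot be told apart, here and for every gene that follows.

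The other members of the FOXA family were near the floor. FOXA2 had 0 to 3 fragments per library and was not tested, and FOXA3 had 0 and 1 fragments with si-FOXA1 against 11 and 10 with si-control. Of 25 forkhead genes tested, 12 were called higher and 6 lower, with a median of 0.66. FOXN3, a forkhead repressor, stood at 88.7 and 83.4 CPM against 37.9 and 35.7 (1.23, SE 0.078), and FOXO1, the forkhead factor downstream of insulin signalling, at 45.1 and 43.7 against 19.1 and 19.9 (1.19, SE 0.083). FOXD2 was lower, at 4.4 and 4.37 CPM against 13 and 16.9 (-1.77, SE 0.12).

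The difference between the groups was broad. Of 18806 genes tested, 14022 were called (74.6%), of which 7535 were higher without FOXA1 (40.1%) and 6487 lower (34.5%), and the median over all genes was 0.12. At least 2-fold differences were called for 4573 genes higher (24.3%) and 2706 lower (14.4%). The 2 libraries of each group lay wholly apart for 86.2% of the genes (46.7% higher and 39.5% lower without FOXA1). These shares are the background against which each group of genes below is read. Exon length moved with the difference. Among 12098 genes with a mean of at least 1 log2 CPM, the 3027 with 57 to 3131 bases of exon had a median of -0.56, with 62.5% called lower, while the 3024 with 7102 to 45649 bases had a median of 0.31, with 54.5% called higher. The same trend ran from -0.35 to 0.17 at 0 h, from -0.44 to 0.18 against si-CBX3 and from -0.38 to 0.12 against si-BRG1, while the medians of replicate 2 against replicate 1 within either group stayed within 0.046 of 0. A pair of gene sets was chosen after the values were seen. Of 75 ribosomal protein genes, with a median exon length of 2847 bases, 71 were lower (median -1.09). Of 445 zinc finger genes named ZNF, with a median exon length of 4724 bases, 296 were higher (median 0.74). The length class that holds 4724 bases had a median of -0.21, and the part of length in either set was not tested. Where a fit with exon length as an offset, added after seeing the data, moves a gene's printed log2 difference or fold by over 1.5 times or changes its call, its value is given beside the result; beyond these values the part of length in the results was not tested.

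**Figure D1:**
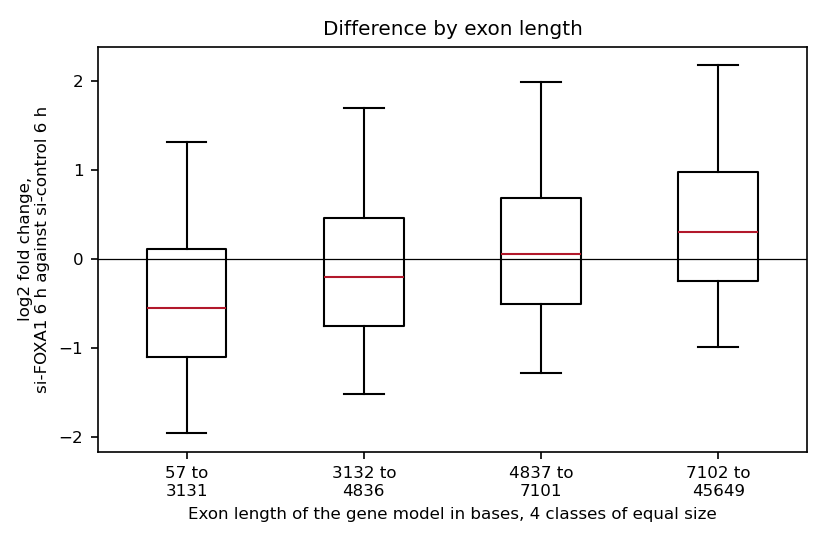
Difference by exon length. Boxes show the quartiles of the log2 fold change of si-FOXA1 6 h against si-control 6 h in 4 classes of 12098 genes by exon length, red lines the medians and whiskers the 5th and 95th percentiles. The medians run from -0.56 in the shortest class to 0.31 in the longest.

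The steroid receptors did not move together. PGR, the progesterone receptor, was at 217 and 198 CPM with si-FOXA1 and 84.4 and 110.2 CPM with si-control after 6 h, a 2.14-fold higher level (1.09, SE 0.15, adjusted p 2e-05). Before hormone, PGR was at 551 and 516 CPM against 473 and 571 and the groups overlapped (0.03, adjusted p 0.86). The difference at 6 h exceeded that at 0 h by 1.06 (adjusted p 0.0023), and all 4 values after hormone lay below all 4 before it. In the other knockdowns at 6 h PGR stood at 223 and 221 CPM (si-CBX3) and 166 and 219 CPM (si-BRG1), and the differences of si-FOXA1 from them were -0.10 (SE 0.15) and 0.11 (SE 0.15), which did not pass the test (adjusted p 0.59 and 0.53). With the exon length offset the PGR difference was 0.52.

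ESR1, the oestrogen receptor, was at 106 and 105 CPM against 92.1 and 91 CPM (0.20, SE 0.062, adjusted p 0.0065), a small difference whose sign turned to -0.30 with the length offset and whose call was lost without either si-control library (adjusted p 0.062 and 0.096). NR3C1, the glucocorticoid receptor, was at 18.7 and 17.5 CPM against 18 and 19.8 with overlapping groups (-0.06, adjusted p 0.49), where it had been lower without FOXA1 at 0 h (-1.28). GATA3, the luminal zinc finger factor that binds beside FOXA1, was at 292 and 337 CPM against 337 and 306 and did not pass the test (-0.03, SE 0.079, adjusted p 0.73). With the length offset NR3C1 was called lower at -0.36 and GATA3 higher at 0.28. Without TMM scaling GATA3 was at 324.2 and 371.4 CPM against 304.6 and 277, above both controls.

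Of 26 steroid receptors and coregulators tested, 15 were higher, 5 lower and 6 not called, with a median of 0.26. NRIP1, a corepressor of nuclear receptors, was at 98.2 and 83.9 CPM against 51 and 48.6 (0.87, SE 0.079), and the Groucho corepressor TLE3 at 90.4 and 106 against 43.3 and 43.8 (1.18, SE 0.088; 0.72 with the length offset). The acetyltransferase CREBBP stood at 166 and 179 CPM against 48.7 and 49.6 (1.81, SE 0.21). In each of these 3 genes both si-FOXA1 values lay above both controls, which the naming rule required of NRIP1 and TLE3. On the lower side were ESRRA, an orphan receptor of energy metabolism, at 31.8 and 35.5 CPM against 84.4 and 84.3 (-1.32, SE 0.071), and FKBP4, a receptor co-chaperone, at 212 and 209 against 354 and 385 (-0.81, SE 0.068).

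**Figure D2:**
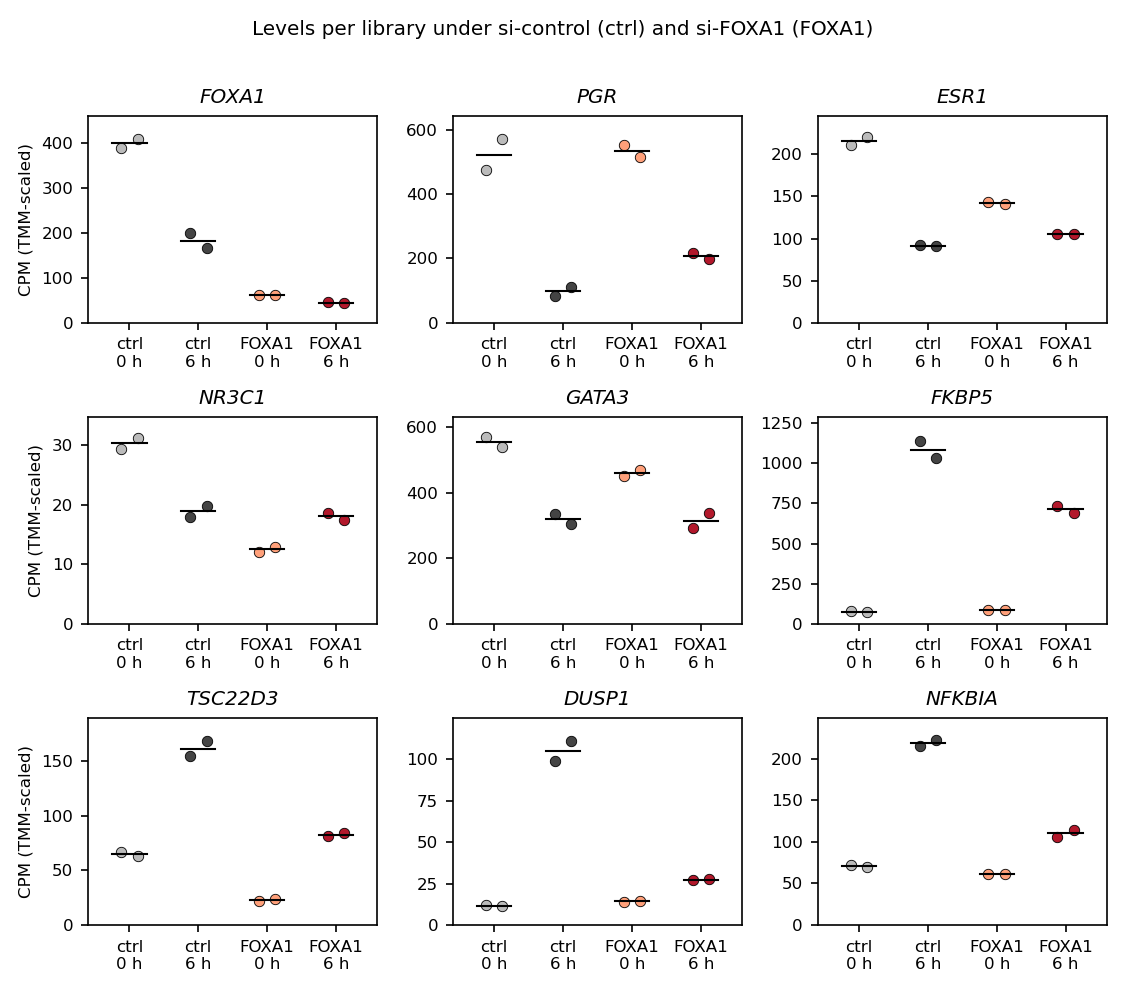
Levels of FOXA1, steroid receptors, GATA3 and 4 progestin-induced genes. Each point is 1 library in TMM-scaled CPM on a linear axis from 0, lines are means of 2 libraries, and the 4 groups are the control and the FOXA1 siRNA before and after R5020. FOXA1 is lower with its siRNA at both times; PGR is alike before hormone and higher without FOXA1 after it.

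The genes that progestins and glucocorticoids induce ended at lower levels more often than at higher ones. Of 32 tested, 16 were lower, 9 higher and 7 not called, with a median of -0.27 against 0.12 over all genes. FKBP5, the receptor co-chaperone that is a standard readout of the hormone, was at 737 and 692 CPM without FOXA1 and 1140.3 and 1030.0 CPM in controls, a 1.52-fold lower level (-0.60, SE 0.068, adjusted p 2.5e-07). It started from 86.3 and 85.5 CPM against 79.3 and 74.8 CPM at 0 h, so that both groups were strongly above their starting level; the difference at 0 h was 0.16 (adjusted p 0.051; change of the difference between the times -0.76, adjusted p 1.4e-05). FKBP5 without FOXA1 was also lower than in si-CBX3 (-0.55) and si-BRG1 (-0.75) at 6 h, and the length offset put its difference from si-control at -0.97.

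DUSP1, a phosphatase that ends MAP kinase signalling, was at 27.3 and 27.5 CPM against 99.1 and 111 CPM, 3.83-fold lower (-1.94, SE 0.082, adjusted p 5.6e-13), although at 0 h it had been slightly higher without FOXA1 (0.29). TSC22D3, which encodes the glucocorticoid-induced leucine zipper protein, was at 81.3 and 84.2 CPM against 155 and 169 (-0.97, SE 0.070, adjusted p 6.4e-10), and had also been lower before hormone, at 22.1 and 24.1 CPM against 67 and 63.2. NFKBIA, the inhibitor of NF-kB, stood at 106 and 114 CPM against 215 and 222 (-0.99, SE 0.070; -0.53 with the length offset). The metallothionein MT2A was at 6.68 and 7.53 CPM against 25.7 and 20.7 (-1.71, SE 0.11; -0.98 with the length offset); its paralogues share much of its sequence, so its count is uncertain. In all 4 genes every si-FOXA1 value was below every control value, and lack of overlap was a condition for naming list members.

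Other induced genes differed less from the controls; the 4 that follow were named after their values were seen. SGK1, a kinase induced by serum and glucocorticoids, was at 43.7 and 42.5 CPM against 32.4 and 30.1 (0.47, adjusted p 0.00071), with 0.13 and no call under the length offset. ZBTB16, a zinc finger gene of progestin-treated endometrium, was at 3.44 and 3.72 CPM against 3.89 and 3.72 and did not differ by the test (adjusted p 0.64). The clock gene PER1 (18.2 and 21.4 CPM against 30.3 and 30.3) and the Krueppel-like factor gene KLF9 (20.5 and 19.2 against 30.9 and 26.6) were lower by log2 values of -0.62 and -0.53. Set against untreated si-control cells at 0 h, in which 74.5% of all genes were called, 26 of the 32 were higher in si-FOXA1 cells at 6 h and 5 lower, with a median of 1.81 against 0.11 over all genes. At 0 h, with 73.5% of genes called, the same list was 17 higher and 8 lower in si-FOXA1 cells (median 0.43). The difference changed between the times for 19 of the 32, in 15 of them downwards, where 28.6% of all genes changed and 15.7% downwards.

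Luminal secretory genes were among the largest falls of the comparison. Of 25 luminal surface and secretory genes tested, 17 were lower, 5 higher and 3 not called, with a median of -1.11. The median member was at 73.3 and 100.2 CPM in the si-FOXA1 libraries and 194 and 184 CPM in the si-control libraries. AGR2, a disulfide isomerase of mucus-secreting cells, was at 54.5 and 50.8 CPM against 1319 and 1365 CPM, 25.5-fold lower (-4.67, SE 0.085, adjusted p 1.9e-17). PIP, the prolactin-inducible protein of apocrine secretion, was at 109.5 and 104 CPM against 2276 and 2136 (-4.37, SE 0.099; -3.42 with the length offset). The trefoil factor gene TFF3 stood at 1.68 and 2.04 CPM against 44 and 49.2 (-4.64, SE 0.15; -3.88 with the length offset), and its neighbour TFF1, a classical oestrogen-responsive gene, had 0 and 1 fragments against 75 and 83. SRARP, which encodes a partner of steroid receptors, was at 0.428 and 0.366 CPM against 81.7 and 73.9 (-7.61, SE 0.23). Lack of overlap between the groups was a condition for naming these genes, except TFF1, whose groups did not overlap either. Each of these genes was also lower than in si-BRG1 cells at 6 h. Against si-CBX3 cells AGR2, PIP, TFF3 and SRARP were lower as well, while TFF1, at 0.0209 and 0.0964 CPM there, did not pass the test (-2.55, adjusted p 0.097).

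Other genes among the 12 largest falls belong to no luminal list. SERPINA6, which encodes corticosteroid-binding globulin, was at 45.1 and 52.6 CPM against 1717 and 1817 CPM, 36.1-fold lower (-5.18, SE 0.10, adjusted p 3.8e-17; -4.59 with the length offset). KMO, an enzyme of tryptophan breakdown, was at 3.39 and 2.93 CPM against 111 and 119 (-5.18, SE 0.13), and the cell surface glycoprotein gene CEACAM6 at 2 and 1.81 against 59.4 and 50.9 (-4.86, SE 0.13). ANKRD22, an ankyrin repeat gene, fell by 31.7-fold, from 379 and 374 CPM in controls to 12.1 and 11.7 CPM (log2 -4.99; -4.37 with the length offset), and the cartilage matrix gene MATN3 stood at 2.42 and 2.28 CPM against 72.8 and 70.1 (-4.93, SE 0.091). Si-FOXA1 values lay below controls in every one of these, which the naming rule required.

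Luminal transcription factors were mixed. Of 22 tested, 12 were higher and 7 lower, with a median of 0.46. SPDEF, an ETS factor of secretory cells, was at 35.1 and 42.6 CPM against 224 and 205 (-2.46, SE 0.094, adjusted p 1.6e-13), and XBP1, a factor of secretory and unfolded-protein programmes, at 623 and 582 against 1690.3 and 1706 (-1.49, SE 0.088). SOX9, a factor of mammary progenitors, was the opposite, at 342 and 327 CPM against 59.5 and 57.7 (2.51, SE 0.099, adjusted p 2.7e-13), and TFAP2B, an AP-2 factor, rose from 0.434 and 0.284 CPM in controls to 5.6 and 6.28 CPM. SOX9 without FOXA1 was nevertheless lower than in si-CBX3 cells at 6 h (-0.32), where it stood at 419 and 415 CPM. Of 19 genes of androgen signalling and prostate-type secretion, 13 were lower and 4 higher (median -0.96): the metalloreductase gene STEAP1 was at 12.2 and 12.8 CPM against 129 and 121 (-3.32, SE 0.077; -2.67 with the length offset) and AZGP1, zinc alpha-2-glycoprotein, at 67.7 and 65.2 against 194 and 184 (-1.51, SE 0.069), while the related STEAP4 was higher (1.80, SE 0.080).

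Of the keratins of luminal cells, KRT8 and KRT18 were higher. KRT8 was at 4040.1 and 4075 CPM against 2246 and 2434 and KRT18, its partner, at 1424 and 1366 against 737 and 728, log2 differences of 0.79 and 0.93. KRT19 was at 3907 and 3812 CPM against 4065 and 4242 and did not pass the test (-0.11, adjusted p 0.27), although both scaled si-FOXA1 values lay below both controls. Without TMM scaling KRT19 was at 4336 and 4200 CPM against 3675 and 3838, above both controls. In the fit without the filter on low counts KRT19 was called lower (-0.17, adjusted p 0.043). The adhesion genes CDH1, E-cadherin, and EPCAM differed by -0.39 and -0.16; the EPCAM call (adjusted p 0.046) was lost without si-FOXA1 replicate 2 (adjusted p 0.30) and without si-control replicate 2 (0.18). With the length offset KRT19 and EPCAM were called higher, at 0.36 and 0.27. Without TMM scaling EPCAM was at 162.7 and 146.5 CPM against 135.2 and 146.6, with overlapping groups. These 5 genes serve as the epithelial markers.

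Basal epithelial genes stood higher. Of 23 tested, 18 were higher, 1 lower and 4 not called, with a median of 1.79 against 0.12 over all genes, and the median member was at 9.41 and 8.76 CPM against 3.49 and 3.58 CPM. KRT16, a keratin of activated squamous epithelium, was at 54.9 and 58.7 CPM against 2.12 and 2.46 CPM, 24.8-fold higher (4.63, SE 0.13, adjusted p 4.5e-15). KRT15, a keratin of basal and progenitor cells, was at 189.9 and 202 CPM against 9.54 and 11.4 CPM (4.23, SE 0.22, adjusted p 3.5e-09). Both genes were also higher than in the other knockdowns, KRT16 by 6.44 and KRT15 by 5.42 against si-CBX3. KRT16 shares long stretches with KRT14, KRT17 and their pseudogenes, so its count is uncertain. ITGA6, the laminin-binding integrin, was at 179 and 145 CPM against 30.7 and 30.2 (2.41, SE 0.086), the neurotrophin receptor gene NGFR at 65.3 and 75.1 against 4.93 and 5.46 (3.76, SE 0.14), and TRIM29 at 58.7 and 64 against 12.3 and 11.5 (2.37, SE 0.091).

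The defining basal markers stayed low in absolute terms. KRT5 had 96 and 98 fragments with si-FOXA1 against 8 and 3 with si-control, KRT14 28 and 29 against 1 and 1, and TP63, the basal master factor, 78 and 61 against 10 and 6. On the CPM scale KRT5 reached 1.71 and 1.63 and TP63 1.39 and 1.01. CDH3, P-cadherin, was abundant in both groups, at 159 and 175 CPM against 56.4 and 54.7 (1.59, SE 0.075), and EGFR was at 163 and 168 against 122 and 109 (0.52, with 0.04 and no call under the length offset). The mesenchymal gene VIM was lower, at 2.1 and 1.91 CPM against 4.95 and 4.84. Of 12 mesenchymal genes tested, 6 were higher and 4 lower (median 0.74): the actin-binding gene TAGLN was at 30.4 and 32.5 CPM against 3.36 and 2.26, and fibronectin, FN1, at 10.7 and 11.5 against 41.3 and 42.6. Of the further cell type lists, 2 of 7 leukocyte, 2 of 4 endothelial and 4 of 7 melanocyte and neural genes tested were higher, and 1, 1 and 3 lower. Their summed levels over the genes tested were 2.71 and 2.38 CPM against 1.7 and 1.48 for leukocytes, 4.6 and 5.47 CPM against 6.55 and 6.9 for endothelium, and 37.3 and 38.3 CPM against 42.4 and 38.8 for melanocyte and neural genes.

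**Figure D3:**
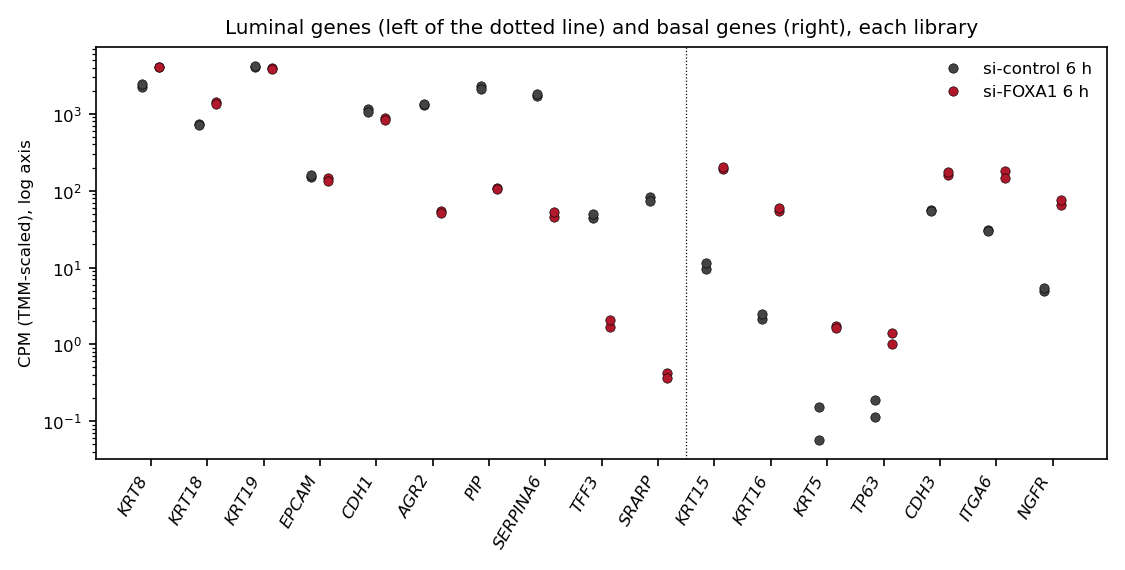
Luminal and basal genes in each library at 6 h. SERPINA6 is plotted on the luminal side although it belongs to no luminal list used here. Points are TMM-scaled CPM on a log axis, with si-control in grey and si-FOXA1 in red, 2 libraries each. AGR2, PIP, SERPINA6, TFF3 and SRARP are lower and KRT15, KRT16 and NGFR higher without FOXA1, while KRT8, KRT18, KRT19, EPCAM and CDH1 stay within 2-fold.

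Squamous differentiation genes were less uniform, with 13 of 23 higher and 5 lower (median 0.48). The cornified envelope gene SPRR3 was at 4.06 and 5.19 CPM against 0.151 and 0.0379 and the calcium-binding S100A8 at 9.5 and 9.39 against 1.11 and 0.853, while TGM3, a transglutaminase, went the other way, at 0.356 and 0.366 CPM against 16.5 and 14.6 (-5.42, SE 0.20). The SPRR3 control value rested on 2 to 8 fragments. Of 23 tight junction and adhesion genes, 11 were higher and 8 lower: CLDN7 was at 65.9 and 77.6 CPM against 197 and 197, CLDN4 at 488 and 593 against 1147 and 1183, and OCLN, occludin, at 18.2 and 18.4 against 40 and 43.5, all lower, while the neural cadherin gene CDH2 was at 3.99 and 4.67 against 0.68 and 0.645.

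Genes of the matrix and of axon guidance rose widely. Of 39 extracellular matrix genes tested, 24 were higher and 7 lower (median 1.39), and the median member was at 10.7 and 10.7 CPM against 2.42 and 2.28. NTN4, a netrin of basement membranes, was at 133 and 128 CPM against 7.73 and 7.02 CPM, 17.7-fold higher (4.14, SE 0.082, adjusted p 3.8e-17), with nearly the same difference before hormone (4.30). LTBP1, which stores latent TGF-beta in the matrix, was at 377 and 365 CPM against 80.4 and 75.4 (2.25, SE 0.069). FMOD, the collagen-binding fibromodulin, was a fall in the same list, at 0.588 and 0.665 CPM against 30.8 and 28.9 (-5.57, SE 0.16). Of 34 axon guidance and neural genes, 31 were higher and 3 lower (median 1.47): the netrin receptor gene UNC5B was at 206 and 231 CPM against 30.2 and 27.4 (2.92, SE 0.099), the SLIT receptor gene ROBO1 at 129 and 126 against 32.5 and 31 (2.01, SE 0.079), and the ephrin receptor gene EPHB6 at 86.3 and 95.7 against 23.4 and 20.5 (2.05, SE 0.085). Each of these genes but FMOD was higher in both si-FOXA1 libraries than in both controls. Lack of overlap was a condition for naming them.

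The largest rise by the naming rule was SSTR2, a receptor for somatostatin. It was at 60 and 61.8 CPM against 1.62 and 1.57 CPM, 38-fold higher (5.25, SE 0.11, adjusted p 7.8e-17), and before hormone the difference was 1.77. Among the other largest rises, the integrin gene ITGB8 was at 54.1 and 48.2 CPM against 3.49 and 2.92, the scavenger receptor gene SCARA3 at 99.3 and 110.2 against 6.93 and 6.24, and the calcium-binding S100A1 at 72.5 and 69 against 3.68 and 4.36. NEAT1, the RNA that scaffolds nuclear paraspeckles, was at 429.7 and 429.7 CPM against 28.1 and 28 (3.94, SE 0.35, adjusted p 5.4e-06; 3.12 with the length offset). PABPC1L, a poly(A)-binding protein of oocytes, and the zinc finger loci ZNF37BP, ZNF117 and ZNF83 completed the 12, at log2 differences of 4.05, 4.74, 4.12 and 3.99; ZNF37BP is a pseudogene, and zinc finger genes share near-identical copies, so these counts are uncertain. None of the 12 overlapped between the groups, which the naming rule required.

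Interferon-stimulated genes were lower almost throughout. Of 42 tested, 39 were lower, 1 higher and 2 not called, against 34.5% of all genes lower, with a median of -2.48. The median member was at 6.72 and 5.8 CPM with si-FOXA1 and 43.9 and 41.1 CPM with si-control. ISG15, a ubiquitin-like protein, was at 1.1 and 1.21 CPM against 112 and 97.1 CPM, 89.8-fold lower (-6.49, SE 0.59, adjusted p 7.1e-06; -5.59 with the length offset). IFIT1, which binds foreign RNA caps, was at 6.77 and 5.04 CPM against 257 and 247 (-5.42, SE 0.49, adjusted p 6.3e-06). The antiviral genes IFI27, OAS1 and MX1 stood at 2.1 and 2.24, 6.67 and 5.32 and 49.1 and 41.7 CPM against 122 and 113, 204 and 185 and 810.4 and 722 CPM. IRF1, the early interferon-regulatory factor, was the member that was higher, at 27.1 and 30.3 CPM against 15 and 15.4 (0.91, SE 0.12).

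For ISG15 and IFIT1 the levels in the other knockdowns at 6 h lay between those with si-control and si-FOXA1. ISG15 stood at 33.9 and 25.9 CPM with si-CBX3 and 11.9 and 8.63 CPM with si-BRG1, and IFIT1 at 68.6 and 68.6 CPM and 37.8 and 32.5 CPM, so that the order was si-control, si-CBX3, si-BRG1 and si-FOXA1 for both genes, with no overlap between neighbours. IRF1 did not follow this order. It was at 6.21 and 5.4 CPM with si-CBX3 and 6.34 and 7.23 CPM with si-BRG1, below both si-control and si-FOXA1. Against si-CBX3, where 69.1% of all genes were called, 32 of the 42 were lower and 4 higher in si-FOXA1 (median -1.37). Against si-BRG1, where 70.3% of all genes were called, 20 were lower and 4 higher (median -0.86). Before hormone 38 of the 42 were lower than in si-control (median -2.41), so the low level was present without the hormone. The si-control libraries at 0 h differed among themselves, at 124 and 48 CPM for ISG15, where those at 6 h were close. Antigen presentation by MHC class I, which interferon also raises, went the same way, with 14 of 18 genes lower and 1 higher (median -0.52): B2M, the light chain, was at 430.1 and 385 CPM against 789 and 797 (-0.96, SE 0.083; -0.63 with the length offset) and the peptide transporter gene TAP1 at 80.2 and 84.2 against 162 and 154 (-0.94, SE 0.10), while TAPBP, tapasin, was higher (1.17, SE 0.11).

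Promoter sequence was at hand for 33 of the 42 interferon-stimulated genes, from RefSeq with build GRCh38.p14. The 250 bases before the start held a form of the interferon-stimulated response element, the letters GAAA and again GAAA with any 2 bases between, on either strand in 19 of the 33 (57.6%), where 839 of all 27305 promoters held them (3.07%) and 2.2% of those of genes tested. The element is the site through which interferon signalling acts on these genes. Stretches around it are shown for 6 of the genes that fell, as examples of the promoters that hold these letters; capitals mark the match, each is written 5′ to 3′ in the direction of its gene, and coordinates are those of GRCh38.p14.
ISG15 (chr1:1013360-1013429, plus strand): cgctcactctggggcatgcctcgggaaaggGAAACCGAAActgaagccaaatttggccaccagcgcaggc
IFIT1 (chr10:89392490-89392559, plus strand): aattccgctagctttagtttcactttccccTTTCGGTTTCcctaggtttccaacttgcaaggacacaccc
IFI27 (chr14:94110611-94110680, plus strand): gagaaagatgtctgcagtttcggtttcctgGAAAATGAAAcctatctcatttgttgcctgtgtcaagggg
IFI6 (chr1:27672246-27672315, minus strand): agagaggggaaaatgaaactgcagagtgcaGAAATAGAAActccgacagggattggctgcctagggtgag
IFITM1 (chr11:313970-314039, plus strand): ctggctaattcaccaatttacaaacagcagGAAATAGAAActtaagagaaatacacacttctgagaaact
IFI44L (chr1:78620345-78620414, plus strand): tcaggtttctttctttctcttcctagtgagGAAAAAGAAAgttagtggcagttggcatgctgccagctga
The matches in ISG15, IFI27, IFI6, IFITM1 and IFI44L read on the strand of the gene and that in IFIT1 on the other strand. IFI6, a mitochondrial antiviral gene, was at 7.98 and 10 CPM against 176 and 199.7, IFITM1, a membrane protein that blocks virus entry, at 2.98 and 3.17 against 37.6 and 36.5, and IFI44L, a low transcript, at 0.107 and 0.0166 against 1.59 and 1.04. IFITM1 and its neighbours share near-identical sequence, so its count is uncertain. A match is a description of letters and not of binding.

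Forkhead-type letters did not set the falling genes apart. TGTTTNC, a core of forkhead sites, was found in the same window on either strand in 11% of the promoters of genes at least 2-fold lower, 10.6% of those at least 2-fold higher and 10.7% of all genes tested, over 1799, 2549 and 12436 promoters. The window is short and lies at the start of the gene, and distal regions, where FOXA1 is known to bind most, were not examined.

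Most genes of cholesterol synthesis were lower. Of 24 genes tested, 22 were lower and the other two, LSS and PMVK, were not called, with a median of -1.35. The median member was at 91.5 and 92.7 CPM against 177 and 174 CPM. HMGCS1, the synthase at an early step, was at 117 and 109 CPM against 263 and 259 CPM, 2.31-fold lower (-1.21, SE 0.075, adjusted p 9.6e-11), and SQLE, squalene epoxidase, at 194 and 169 against 416 and 411 (-1.19, SE 0.071). Later steps showed the same: CYP51A1, the sterol demethylase, was at 4.72 and 5.8 CPM against 24.6 and 22.4 (-2.16, SE 0.13), NSDHL at 18.8 and 21.4 against 83.9 and 85 (-2.07, SE 0.090), and EBP at 35.2 and 33.3 against 133 and 132 (-1.95, SE 0.089). SREBF2, the transcription factor of the pathway, was at 189 and 216 CPM against 304 and 291 (-0.56, SE 0.069). The fall was also measured against si-CBX3 (24 of 24 lower) and si-BRG1 (23 of 24), comparisons that share the si-FOXA1 libraries, and against si-control at 0 h (22 lower, 2 higher).

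Other metabolic genes changed in part. Of 24 genes of fatty acid and glycerolipid synthesis, 12 were lower and 8 higher (median -0.27). Among the lower ones were ACLY, which makes cytosolic acetyl-CoA, at 418 and 418 CPM against 1455 and 1370.0 (-1.76, SE 0.067), SCD, the stearoyl desaturase, at 1080.1 and 1061 against 3139 and 2878 (-1.49, SE 0.068), and ACSS2 (-1.42, SE 0.084). Of 27 genes of glycolysis and hypoxia, 18 were lower and 5 higher (median -0.56). LDHA, lactate dehydrogenase, was at 435 and 399 CPM against 1893 and 1972 CPM (-2.21, SE 0.071, adjusted p 2e-14), and the hypoxia-responsive BNIP3 at 68.6 and 61 against 194 and 207 (-1.63, SE 0.087). For LDHA the difference was -1.36 at 0 h, and it was larger at 6 h by -0.85 (adjusted p 3.4e-06). Of 25 enzymes of steroid and drug metabolism, 10 were higher and 12 lower: the steroid reductases SRD5A1 and SRD5A3 went opposite ways (1.05 and -1.17).

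Of 28 genes of endoplasmic reticulum and amino acid stress, 16 were lower and 8 higher (median -0.42). HSPA5, the main chaperone of the compartment, was at 1059 and 967 CPM against 2199 and 2292 (-1.15, SE 0.079), its co-chaperone gene DNAJB9 at 37.2 and 35.1 against 91.7 and 103 (-1.43, SE 0.099), and the membrane-bound factor gene CREB3L4 at 119 and 120.2 against 297 and 293 (-1.31, SE 0.097). Both si-FOXA1 values of each lay below both controls, and lack of overlap was a condition for naming them.

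**Figure D4:**
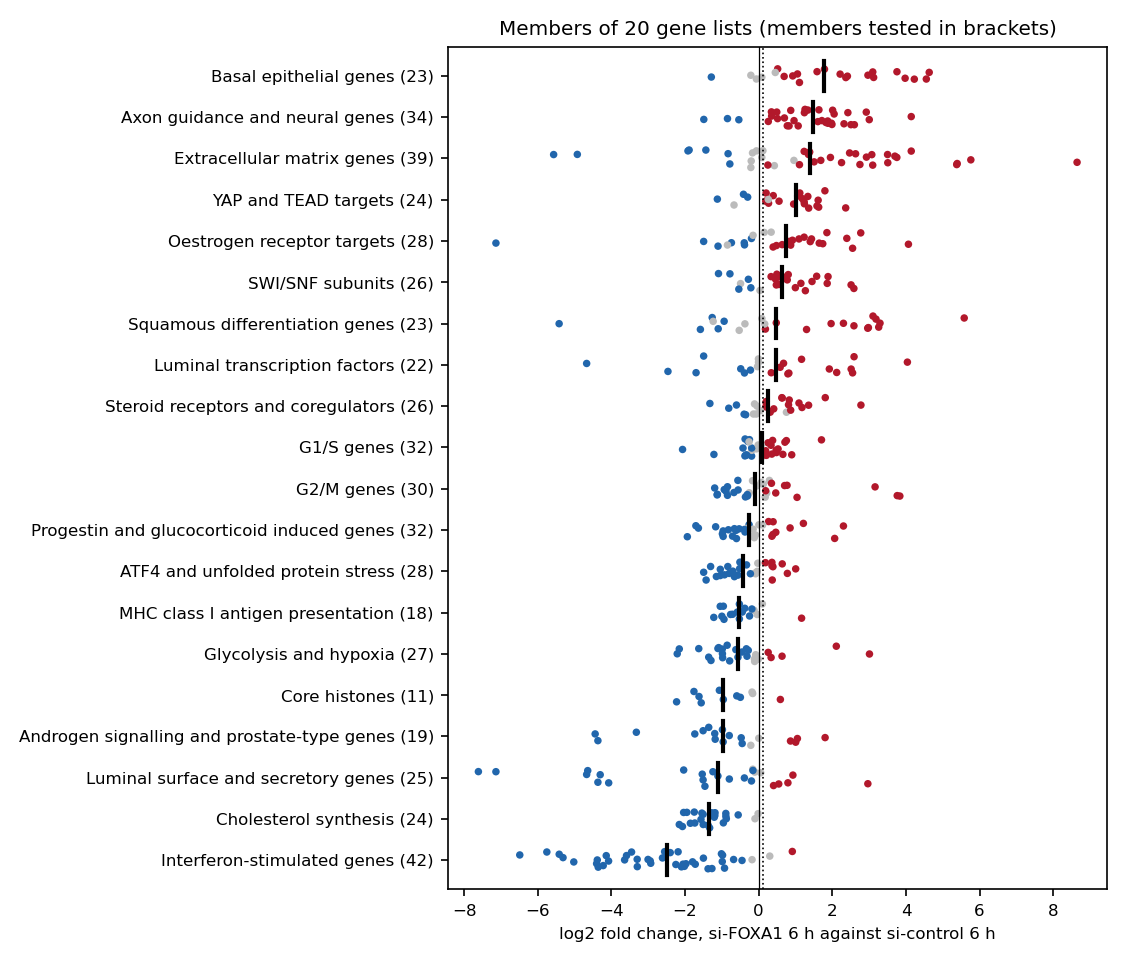
Members of 20 gene lists. Each point is 1 gene tested, with its log2 fold change of si-FOXA1 6 h against si-control 6 h on the x axis; red points were called higher, blue lower and grey not called, black bars are medians of the lists and the dotted line is the median of all genes, 0.12. Interferon-stimulated genes (median -2.48) and cholesterol synthesis (-1.35) lie almost wholly to the left, and basal epithelial genes (1.79) and axon guidance genes (1.47) to the right.

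Cell cycle genes lay on both sides. Of 32 G1/S genes tested, 15 were higher (46.9%) and 11 lower (34.4%), with a median of 0.09. Of 30 G2/M genes, 9 were higher (30%) and 13 lower (43.3%), with a median of -0.11. Among all genes tested 40.1% were higher and 34.5% lower, so a split of this kind was not particular to cell cycle genes. GINS2, a subunit of the replicative helicase complex, was at 80.4 and 78.6 CPM against 326 and 340.1 (-2.07, SE 0.067, adjusted p 2.2e-14), and CCNB1, mitotic cyclin B, at 53.4 and 53.6 against 93.6 and 98.9 (-0.85, SE 0.074). TOP2A, the mitotic topoisomerase, was higher, at 253 and 219 CPM against 109.9 and 119 (1.04, SE 0.10). MKI67, the proliferation antigen, was at 142 and 142 CPM against 8.54 and 12.4 CPM (3.76, SE 0.55, adjusted p 0.0002), and the kinetochore genes CENPE and CENPF at 29 and 22.1 and 258 and 204 against 2.04 and 1.54 and 25.2 and 26.5; these 3 were named after their values were seen and have 12807, 9444 and 11663 bases of exon. CDC20 (-1.12) and PTTG1 (-1.13) were lower, as CCNB1 was. With the length offset, 13 of the 30 G2/M genes were higher and 10 lower. MKI67, CENPE and CENPF were then at 3.29, 3.52 and 2.74, and CCNB1, CDC20 and PTTG1 were still called lower, at -0.43, -0.58 and -0.58. The part of exon length in these differences was not tested further. At 6 h, 29 of the 30 G2/M genes were higher than in si-CBX3 and 23 were lower than in si-BRG1. CDKN1A, the p21 inhibitor, was at 109.6 and 126 CPM against 310.3 and 314 (-1.41, SE 0.081), CCND3 at 44.3 and 52.8 against 116 and 110.1, and CCND1 at 474 and 465 against 537 and 507 with no call (adjusted p 0.081); of 22 G1 cyclins and inhibitors, 8 were higher and 5 lower. Of 22 p53 targets, 10 were higher and 7 lower, with the kinase gene PLK2 at 335 and 316 CPM against 41.1 and 41.9 (2.97, SE 0.079).

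Chromatin genes included the targets of the other siRNAs. SMARCA4, which encodes BRG1, was at 146 and 154 CPM without FOXA1 against 61.7 and 63 CPM (1.27, SE 0.23, adjusted p 0.00054), and CBX3, the heterochromatin protein HP1 gamma, at 381 and 329.5 against 258 and 265 (0.44, SE 0.086, adjusted p 0.00016). SMARCA4 in si-CBX3 cells was at 117 and 121 CPM, and si-FOXA1 did not differ from it by the test (0.33, adjusted p 0.21). Of 26 SWI/SNF subunits tested, 19 were higher and 5 lower (median 0.62): SMARCC2 was at 202 and 212 CPM against 57.6 and 54.7 (1.88, SE 0.12), SMARCA2, the alternative ATPase, at 77.1 and 73.8 against 26.3 and 24.3 (1.58, SE 0.10), and SMARCE1 at 211 and 205 against 100.1 and 88 (1.15, SE 0.082; 0.76 with the length offset). Of 23 HP1 proteins and co-repressors, 12 were higher and 5 lower (median 0.41), with MTA1, a subunit of the NuRD deacetylase complex, at 60.9 and 70.2 CPM against 11.5 and 11.6 (2.50, SE 0.11) and the deacetylase gene HDAC7 at 51.2 and 59.7 against 10.3 and 10.1 (2.44, SE 0.12).

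Histone transcripts were lower. H1-2, the linker histone named in the series title as H1.2, was at 25.2 and 23.7 CPM against 88 and 75.4 CPM, 3.34-fold lower (-1.74, SE 0.11, adjusted p 1.2e-10), and the difference at 0 h was -1.63. Of 7 linker histones tested, 4 were lower and 3 not called, and of 11 core histones, 8 were lower and 1 higher (medians -1.74 and -0.96). The median linker histone was at 0.125 and 0.249 CPM against 0.85 and 0.721, so part of that list lay near the floor. In a fit of only the 4 libraries, 4 linker histones were tested, of which 3 were lower (median -1.29). H4C8 was at 8.29 and 9.24 CPM against 45.3 and 37 and H2BC21 at 18.9 and 21.7 against 73.3 and 64.3. These genes are short: with the exon length offset H1-2 was at -0.85 and H4C8 at -1.43, H1-10 lost its call (-0.09, from -0.77), and 2 linker histones were lower and 1 higher. Histone genes have near-identical copies and mostly lack poly(A) tails, so their counts are uncertain.

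Growth factor and Hippo pathway genes were mostly higher. Of 24 targets of YAP and TEAD, 19 were higher and 3 lower (median 1.00): CCN1, a secreted matrix protein, was at 96 and 88.7 CPM against 35.8 and 36.2 (1.36, SE 0.080), AMOTL1 at 55.1 and 58.4 against 16.2 and 16.4 (1.80, SE 0.078), and CRIM1 at 436 and 422 against 172 and 168 (1.34, SE 0.068). Of 25 genes of the EGFR family, its ligands and its feedback, 14 were higher and 8 lower (median 0.82), with ERBB4 at 46.4 and 43.4 CPM against 9.65 and 8.8 (2.28, SE 0.098), its ligand gene BTC at 11.5 and 12.1 against 2.15 and 1.93 (2.53, SE 0.14), and the phosphatase gene DUSP4 at 83.7 and 83.8 against 20.7 and 22.5 (1.95, SE 0.075). Of 17 insulin and IGF signalling genes, 9 were higher and 3 lower; the receptor substrate IRS1 was at 97 and 97.7 CPM against 42 and 38.4 (1.28, SE 0.074) and IRS2, named after its values were seen, at 18.3 and 20.6 against 3.29 and 4.59 (2.30, SE 0.22), while IGFBP5, a binding protein, was lower (-0.90, SE 0.067). Lack of overlap between the groups was a condition for naming these genes, except IRS2, whose groups did not overlap either.

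Of 28 oestrogen receptor targets, 17 were higher and 7 lower (median 0.73). STC2, stanniocalcin 2, was at 484 and 487 CPM against 87.5 and 97.4 (2.39, SE 0.096, adjusted p 3.2e-13), the receptor tyrosine kinase gene RET at 21.5 and 22.6 against 3 and 3.45 (2.77, SE 0.13), and IGFBP4 at 263 and 282 against 85.1 and 89.1 (1.64, SE 0.082). STC2 and RET exceeded both other knockdowns at 6 h as well (3.09 and 3.06 against si-CBX3). Of 32 immediate-early genes, 18 were higher and 6 lower (median 0.56): MYC was at 69.6 and 72.6 CPM against 26.4 and 27.5 (1.4, SE 0.080, adjusted p 3e-11), after 2.88 at 0 h, and PHLDA1 at 118 and 106 against 36.7 and 33.4 (1.68, SE 0.081).

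Further signalling lists changed on both sides. Of 24 NF-kB targets, 11 were higher and 5 lower, with TNFAIP2 at 28.7 and 34.2 CPM against 6.99 and 8.42 and the inhibitor gene NFKBIE at 7.15 and 7.75 against 27.9 and 34.9. Of 22 chemokines and cytokines, 8 were higher and 6 lower: CCL22, a chemokine for regulatory T cells, was at 33.3 and 37 CPM against 0.718 and 0.948 (5.40, SE 0.13), and the death ligand gene TNFSF10 at 9.68 and 9.08 against 43.8 and 40.3 (-2.17, SE 0.13). The TGF-beta and BMP response list held 10 higher and 7 lower genes among 23, with LTBP2 at 16.9 and 20.5 CPM against 1.42 and 1.46. For Notch and Wnt signalling 20 of 35 genes were higher and 8 lower (median 0.57): NOTCH3 was at 149.6 and 182 CPM against 62.5 and 59.8 (1.44, SE 0.10) and the Wnt receptor genes FZD7 and FZD4 went opposite ways (1.44 and -1.49).

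Much of the difference was already there before hormone, in other libraries. Of the genes tested, 5970 were called higher at both times and 5088 lower at both, while 533 were called in opposite directions and 2431 were called at 6 h and not at 0 h. Genes whose difference changed most between the times, by the rule, included XYLT1, a xylosyltransferase of proteoglycan synthesis. XYLT1 was at 60.1 and 62.7 CPM against 8.29 and 7.47 CPM at 6 h and at 18 and 21.3 against 22.7 and 20.6 at 0 h. After hormone its level was thus higher with si-FOXA1 and lower with si-control than before it (difference 2.96 at 6 h, -0.14 at 0 h). CLDN1, a tight junction claudin, was at 85.9 and 79.6 CPM against 65.3 and 66.5 at 6 h, close to each other, but at 46.5 and 47.5 against 277 and 336 at 0 h. ATP13A4, a transport ATPase, and CALD1, caldesmon, turned from lower to higher (-1.22 to 1.93 and -1.23 to 1.55). GASK1B kept its direction but moved from -4.88 to -1.72.

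On the other side, genes that were higher without FOXA1 at 0 h ended closer to the controls or below them. GLUL, glutamine synthetase, was at 1302 and 1314 CPM against 354 and 368 CPM at 0 h and at 998 and 989 against 2671 and 2507 at 6 h (1.86 and -1.38). HES2, a bHLH repressor gene, went from 2.59 to -0.82 and FRMD3, a FERM domain gene, from 2.13 to -1.36. F2R, the thrombin receptor, went from 4.09 to 0.31, a remaining difference (0.47 with the length offset) whose call (adjusted p 0.023) was lost without any 1 of the 4 libraries (adjusted p 0.053 to 0.20). NEDD9, a scaffold protein of cell adhesion, and CYRIA, a regulator of RAC1, stayed higher with a smaller difference (4.58 to 1.30 and 3.97 to 0.92). Passing the test of the difference itself was a condition for naming these genes, so it is no separate result.

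**Figure D5:**
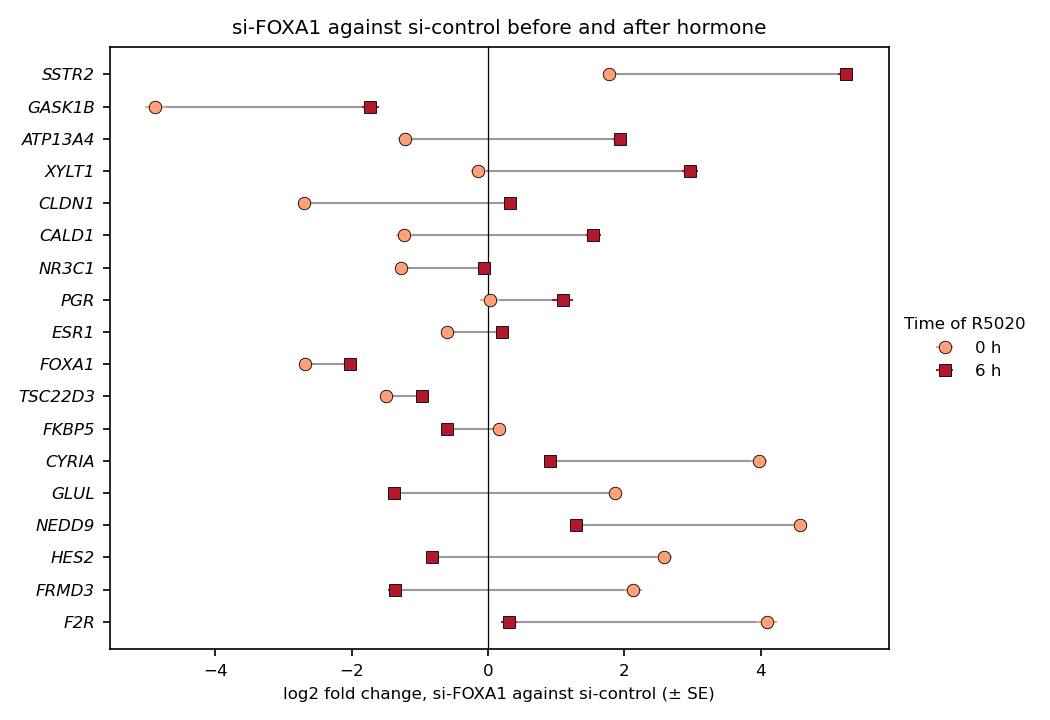
The difference before and after hormone. Circles (0 h) and squares (6 h) are log2 fold changes of si-FOXA1 against si-control with bars of 1 SE, n = 2 libraries per group, for 18 genes whose difference changed between the times. Genes in the upper rows, such as SSTR2 and XYLT1, moved upwards and genes in the lower rows, such as F2R and GLUL, downwards.

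BRG1 binding near these genes was read from 1 peak list each at 0 and 30 min of hormone, in cells for which no siRNA is labelled. Of all genes tested, 1.89% had 1 of the 2288 peaks at 0 h within 5 kb of the 5′ end, against 2.4% of the genes higher and 1.53% of those lower without FOXA1. At 30 min, with 6180 peaks, the shares were 10.3%, 10.6% and 10.5%, so genes on either side held peaks about as often as all genes tested. Among the genes above, ANKRD22 held a peak over its start at both times (hg19, chr10:90609965-90612985 at 30 min, score 227.7 as deposited). FKBP5 (chr6:35693131-35696411, score 184.3), DUSP1 (chr5:172197113-172198899, score 100.3), GLUL (chr1:182358588-182362042, score 84.9) and SOX9 (chr17:70115870-70118590, score 107.4) held one over the start at 30 min only. PGR had one 298 bases from its start at 30 min (score 127.6) and SSTR2 one at 423 bases (score 58.8). FOXA1 had one at 30 min 4886 bases from its 5′ end (score 62.4). The score is the authors' own value per peak, and the lists came from 1 library each.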

How the data were processed

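The counts of 16 RNA-seq libraries, whole fragments per gene with no scaling, were deposited by the authors. The command lines in the headers name featureCounts 1.4.6-p2, counting of fragment pairs, reverse strand setting, and genes of GENCODE 19 on hg19. The submitters' processing notes also list Trimmomatic and STAR, without versions in the sources used here. BRG1 peaks carry a score that was deposited by the authors; the notes list Bowtie 1.0.0 and HOMER, and the settings of the caller were not at hand. Symbols matched 39538 of 57820 genes (68.4%), and genes without one are not named.

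Counts were analysed with edgeR 4.0.16 in R 4.3.3: filterByExpr over 8 groups (18806 genes), TMM scaling, and 1 robust quasi-likelihood fit of all 16 siRNA libraries with a mean per group, leaving 8 residual degrees of freedom. Tests are two-sided with Benjamini-Hochberg adjustment over all genes tested. The fitting code was tested on simulated data. CPM, and RPKM per exon length, were computed here. Whether replicates are separate cultures is not labelled, and p-values therefore reflect only how far these samples spread. Alternatives were RLE scaling, no filter, DESeq2 1.42.0, a replicate block, the 4 libraries alone, each library left out, and exon length as an offset per library, the last added after seeing the data.

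The members and the 39 gene lists were chosen with earlier results of these data known, so they are described by counts and medians and have no test of their own. Genes named by rule are FOXA1 to FOXA3, SMARCA4, CBX3, PGR, ESR1, NR3C1, GATA3, FKBP5, TSC22D3 and H1-2; the 12 largest rises and falls among called genes with a mean of at least 3 log2 CPM and no overlap between groups; up to 4 called members per list with the lowest p and no overlap; and the 6 largest changes of the difference between 0 h and 6 h in each direction. Named besides the rule, after their values were seen, are MKI67, CENPE, CENPF, CREBBP, TFF1, KRT5, KRT8, KRT14, KRT18, KRT19, TP63, EPCAM, CDH1, EGFR, CCND1, CLDN4, VIM, IRF1, MX1, IFI6, IFI44L, IFITM1, CYP51A1, HMGCS1, SQLE, SREBF2, SGK1, ZBTB16, PER1, KLF9 and IRS2. Results of some genes the rule names are not reported here. Peaks were assigned to genes within 5 kb of the 5′ end in hg19. Promoter windows are the 250 bases before the start of 27305 RefSeq entries on GRCh38.p14, used for letters only. The 2 RNA-seq samples without siRNA were not used.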

Additional observations from a re-analysis of the deposited data

Results flagged for a closer look

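Of 223 genes considered for naming or as markers, 104 changed their difference between the times, where 28.6% of all genes tested did. The 223 include genes named because this change was called and genes picked after their values were seen, so their share is no result about them. The 18 given here are those always named and those named for this change. For them the difference between si-FOXA1 and si-control changed between 0 h and 6 h of hormone by the test of the difference itself (edgeR, adjusted p below 0.05, n = 2 libraries per group). Values here are the log2 difference at 6 h minus that at 0 h, and no cause was tested. The difference moved upwards for SSTR2 (3.476), GASK1B (3.158), ATP13A4 (3.149), XYLT1 (3.103), CLDN1 (3.034) and CALD1 (2.781). Among the receptors it moved upwards for NR3C1 (1.213), PGR (1.063) and ESR1 (0.8018). FOXA1 itself moved by 0.6626 and TSC22D3 by 0.5296. It moved downwards for F2R (-3.782), FRMD3 (-3.487), HES2 (-3.41), NEDD9 (-3.282), GLUL (-3.238), CYRIA (-3.056) and FKBP5 (-0.7591). For the 12 genes that were named because their change was called and among the largest, the value is a description.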

How the results depend on the processing

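The number of genes called between si-FOXA1 and si-control at 6 h (14022) was 14016 with RLE scaling, 14208 without a filter, 13414 with DESeq2, 13474 with only the 4 libraries and 14243 with exon length as an offset. The offset, chosen after seeing the data, moved the share of higher among called genes from 53.7% to 60.3% (8588 higher, 5655 lower) and the median of all genes to 0.26. Leaving out 1 library at a time gave 12992 to 13317 genes for that comparison, 12528 to 12898 at 0 h, 3652 to 5671 for the change between the times, 11585 to 12093 against si-CBX3, 11991 to 13063 against si-BRG1 and 12968 to 13293 against si-control at 0 h.

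Over 28 pairs of groups the correlation of the deviations of same-numbered libraries ran from -0.45 to 0.56 with a median of -0.070; it was above 0.1 in 7 pairs, among them si-FOXA1 6 h with si-control 6 h (0.137), si-FOXA1 0 h with 6 h (0.311) and si-BRG1 0 h with 6 h (0.323). Since most pairs were lower, the numbers were not taken to pair the samples. With the replicate block 13931 genes were called at 6 h (7495 higher, 6436 lower), 13715 at 0 h, 5130 for the change between the times, 12913 against si-CBX3, 13109 against si-BRG1 and 13897 against si-control at 0 h. Of the genes named, EPCAM alone changed its call with the block (adjusted p 0.057).

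Signs turned for ESR1 (-0.3041), GATA3 (0.2771), KRT19 (0.3612) and EPCAM (0.2712) with the length offset, and for GATA3, which ran from -0.1418 to 0.06104 when 1 library at a time was left out, without replicate 1 of either group (0.06104 without si-FOXA1 replicate 1 and 0.005409 without si-control replicate 1). Some genes crossed the threshold under some setting: ESR1, F2R, EPCAM, EGFR, SGK1 and H1-10 lost their call, as did the low transcript H1-3 (-2.29) with the length offset (-1.43) and without si-FOXA1 replicate 1 (-1.69) or si-control replicate 2 (-1.97), and CCND1, KRT19 and NR3C1 gained one. Over these settings, left-out libraries included, 37 to 39 interferon-stimulated genes and 22 cholesterol synthesis genes were lower and 17 to 18 basal genes higher. The count of YAP and TEAD targets called higher was less stable. It was 19 of 24 in the main fit and 15 with RLE scaling, without a filter and with DESeq2. Linker histones had a median of -0.85 and core histones of -0.32 with the length offset, and the G2/M median turned to 0.12. The cause of these shifts was not tested. With 2 libraries per group, small differences and transcripts with few fragments, such as KRT14, TFF1 and FOXA3, are the least certain.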
